A study of Homo sapiens with 8 samples.

Results

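MYC and the partners and antagonists that share its dimerization network were examined at the transcript level in 2 human multiple myeloma cell lines with and without forced expression of CTBP2. The set holds 10 genes, chosen by name from the 25906 genes of the deposited expression table: MYC, MAX, MXD1, MXD3, MXD4, MXI1, MNT, MGA, MLX and MLXIP. All 10 had at least 1 FPKM in at least 2 libraries, the filter that 12583 genes passed. FPKM divides fragments by transcript length and library size, so levels can be compared between genes per length. MM.1S and NCI-H929 are established lines of malignant plasma cells. Cultures of each were transduced by lentivirus with an empty vector or with one that overexpresses CTBP2, a corepressor recruited by DNA-bound repressors, and RNA was taken 72 hours later. There were 2 libraries of each line and vector, called biological duplicates in the design, and 8 in all. The empty vector cultures went through the same transduction, and the promoter that drives CTBP2, any selection and the fraction of cells transduced are not stated in the labels.

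MYC is a basic helix-loop-helix leucine zipper protein that binds DNA only as a dimer with MAX. The dimer sits on E-box sequences, best on CACGTG, and raises transcription of genes for ribosome assembly, nucleotide synthesis and cell growth. MXD1, MXI1, MXD3, MXD4, MNT and MGA also pair with MAX and occupy the same sequences: the MXD proteins and MNT recruit SIN3 and histone deacetylases, and MGA belongs to a variant Polycomb complex. MLX and MLXIP, the latter also called MondoA, form a parallel branch that senses glucose phosphates and meets the MAX branch through MXD1, MXD4 and MNT, which can bind MLX as well. MYC is deregulated in most myeloma cell lines, and its transcription in myeloma cells is supported by IRF4.

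The promoters of members that are described below as raised with CTBP2, MXD4 and MXD1, are shown here. The window searched for MXD4 holds the canonical E-box of its own network and that for MXD1 does not. Each window covers the 250 bases before the RefSeq start site in GRCh38.p14, 5′ to 3′ on the gene's strand, with CACGTG in capitals; that motif reads the same on both strands. MXD4 lies on the minus strand at chr4:2262110-2262359 and MXD1 on the plus strand at chr2:69914859-69915108.
MXD4: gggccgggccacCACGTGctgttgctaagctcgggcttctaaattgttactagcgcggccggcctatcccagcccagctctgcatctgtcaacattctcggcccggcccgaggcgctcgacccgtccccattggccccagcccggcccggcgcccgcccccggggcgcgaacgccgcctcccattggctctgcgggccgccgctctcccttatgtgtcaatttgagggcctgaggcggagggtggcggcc
MXD1: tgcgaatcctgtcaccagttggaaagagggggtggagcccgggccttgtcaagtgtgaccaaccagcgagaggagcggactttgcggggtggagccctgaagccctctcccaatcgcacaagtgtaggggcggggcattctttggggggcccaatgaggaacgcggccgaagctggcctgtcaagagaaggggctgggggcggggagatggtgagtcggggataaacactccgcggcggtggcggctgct
Among the 9 members searched, all but MYC, CACGTG occurred once each in MXD4, MNT and MLX, and was absent from these letters in the other 6 windows. That is 33.3% of the members searched, against 6.34% of 35116 RefSeq promoter windows of the same length. The background takes in every listed window, so a gene can count more than once there. Other start sites of the members were not searched, so absence holds for the windows used and not for the genes. The match starts at position -238 relative to the start site in MXD4, -193 in MNT and -50 in MLX. The 30 bases around each match are set side by side for MXD4 (chr4:2262330-2262359, minus strand), MNT (chr17:2401236-2401265, minus strand) and MLX (chr17:42567038-42567067, plus strand), to show the letters on both sides of the motif.
MXD4: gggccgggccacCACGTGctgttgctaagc
MNT: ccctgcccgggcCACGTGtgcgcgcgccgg
MLX: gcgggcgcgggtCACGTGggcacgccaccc
A match is a stretch of letters and not a measured binding site. No binding was measured in these libraries.

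The vector labels held in all 8 libraries: CTBP2 was between 0.148 and 0.213 FPKM with the empty vector and between 1621 and 5884 FPKM with the CTBP2 vector. The line labels did not. The line of a library was read here from CCND2 and FGFR3, each above 10 FPKM in one line only. CCND2 was at least 46.7 FPKM where present and at most 0.063 FPKM elsewhere, and FGFR3 was at least 13.6 FPKM where present and at most 0.057 FPKM elsewhere. By these genes the library labelled as MM.1S CTBP2 replicate 2 is an NCI-H929 library, and the library labelled as NCI-H929 CTBP2 replicate 2 is an MM.1S library. Groups are therefore called MM.1S-marker and NCI-H929-marker libraries, and results are given also without both of these libraries and with the lines as labelled. All 8 plasma cell markers were above 1 FPKM in every library, with summed levels of 2375 to 3469 FPKM with the empty vector and 1700 to 2518 FPKM with CTBP2. Of 4 T cell markers, 3 were below 1 FPKM throughout, CD3D and CD3G among them, and the summed level was 0.544 to 3.70 FPKM with the empty vector and 2.62 to 54.4 FPKM with CTBP2, nearly all of it CD3E. Of 4 myeloid markers 3 were below 1 FPKM throughout (sums 0.544 to 0.652 and 0.788 to 4.81 FPKM), of 3 epithelial markers 2 were (sums 0.103 to 0.373 and 0.681 to 1.47 FPKM), and all 3 fibroblast markers were. Estimated depth was 16000000 to 21000000 fragments per library, which puts about 1200 to 7600 fragments on MYC.

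With the empty vector, MYC was by far the most abundant transcript of the network in both lines. It was at 189.9 and 188 FPKM in MM.1S and at 115 and 92.9 FPKM in NCI-H929. In MM.1S the order below it was MXD3 (25.5 to 25.7 FPKM), MLX (22.2 to 23.7), MAX (16.4 to 16.6), MXD4 (14.9 to 15.0), MXI1 (7.40 to 9.04), MNT (7.75 to 8.16), MGA (3.84 to 5.15), MLXIP (3.68 to 5.22) and MXD1 (2.45 to 3.02). MXI1 and MNT overlapped, as did MGA and MLXIP, while the other neighbours in this order lay apart in their duplicates. In NCI-H929 the order was MLX (25.1 to 29.3 FPKM), MAX (21.3 to 21.8), MXD4 (16.8 to 16.9), MXD3 (9.32 to 13.2), MXI1 (10.0 to 11.2), MLXIP (8.89 to 10.1), MNT (7.15 to 7.36), MGA (3.17 to 3.21) and MXD1 (2.43 to 2.57). MXD3, MXI1 and MLXIP overlapped there. So MYC exceeded its obligate partner MAX at the transcript level by 11.4 and 11.5 times in MM.1S and by 5.26 and 4.35 times in NCI-H929.

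The lines differed at baseline for 4 of the 10 genes, where 50.8% of all genes tested differed. Differences are on the log2(FPKM + 1) scale and adjusted p-values are from limma with Benjamini-Hochberg adjustment over all genes tested, here and below, with a threshold of 0.05. MYC was lower in NCI-H929 by a log2 difference of -0.87 (SE 0.163, adjusted p = 0.00282). MXD3, the family member linked to proliferating cells, was lower by -1.13 (SE 0.221, adjusted p = 0.00334). MLXIP, the glucose-sensing partner of MLX, was higher by 0.96 (SE 0.180, adjusted p = 0.00278). MYC, MXD3 and MLXIP remained called with any 1 library left out. MAX was higher by 0.37 (SE 0.135, adjusted p = 0.0497), a call that was lost with any 1 library left out (adjusted p up to 0.167) except NCI-H929 CTBP2 replicate 1 and the library labelled as MM.1S CTBP2 replicate 2. It was also lost without both CTBP2 replicate 2 libraries (adjusted p = 0.0645) and under equal totals, a scaling to the summed FPKM of genes other than immunoglobulins and CTBP2 (0.20, adjusted p = 0.386). With the lines as labelled 0 of the 10 were called by limma, and 0.0397% of all genes were.

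**Figure D1:**
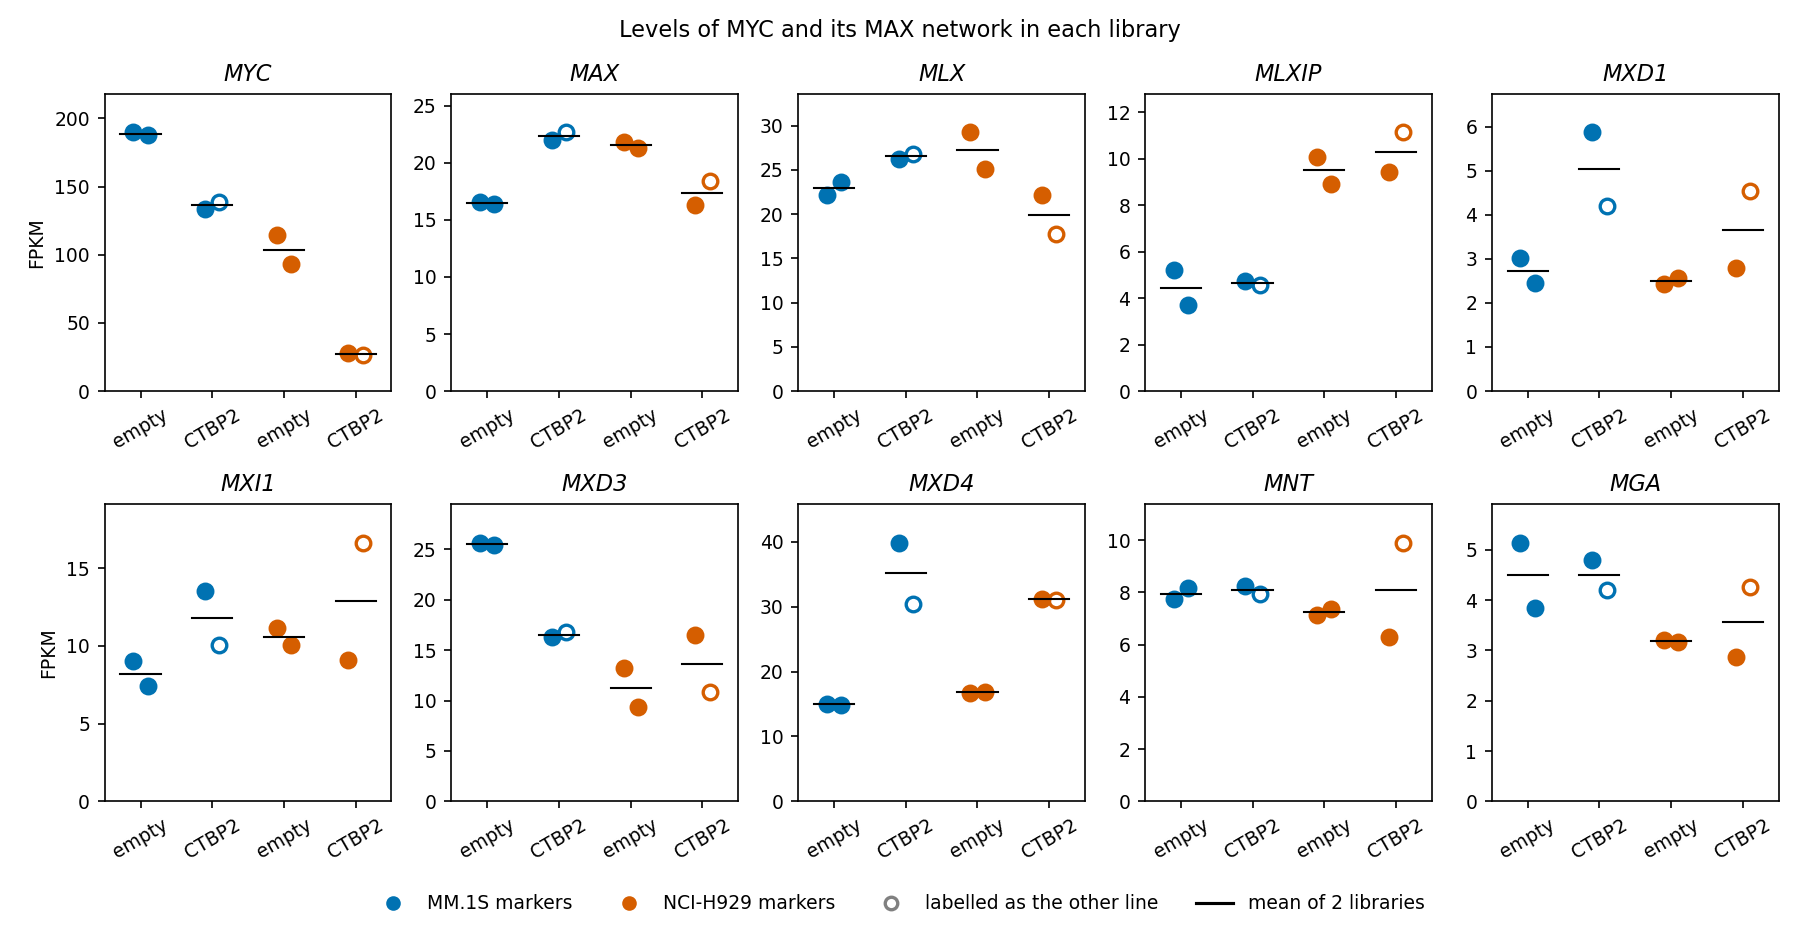
FPKM (each panel with its own axis from 0) of each of the 10 genes by vector, coloured by line markers; each point is 1 library, open points are the libraries labelled as the other line, and bars are means of 2 libraries. MYC is lower with CTBP2 in both colours, down to 26.8 and 27.8 FPKM with NCI-H929 markers, and MXD4 is at 30.4 to 39.9 FPKM in all 4 CTBP2 libraries.

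With CTBP2, 3 of the 10 genes passed the test in both lines together: MYC fell, and the antagonists MXD4 and MXD1 rose. Of all genes tested, 34.1% passed (2186 higher and 2101 lower), so a count of 3 in 10 is near the background. The share was 24.5% without both CTBP2 replicate 2 libraries and 3.34% with the lines as labelled. MXI1, MXD3, MAX, MNT, MGA, MLX and MLXIP did not pass. Under equal totals the calls over all genes shifted to 3827 higher and 866 lower and the median of all genes moved from 0.035 to 0.270. Relative to those medians the value of MYC was -1.21 as reported and -1.15 under equal totals, that of MXD4 0.97 and 1.03, and that of MXD1 0.50 and 0.50. In bulk RNA, fewer cells expressing a gene and less RNA per cell cannot be told apart.

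MYC (Entrez 4609), which encodes the activating member of the network, was lower in every CTBP2 library than in both empty vector libraries of the same line markers. In the MM.1S-marker libraries it went from 189.9 and 188 FPKM to 134 FPKM in MM.1S CTBP2 replicate 1 and 139 FPKM in the library labelled as NCI-H929 CTBP2 replicate 2. In the NCI-H929-marker libraries it went from 115 and 92.9 FPKM to 27.8 FPKM in NCI-H929 CTBP2 replicate 1 and 26.8 FPKM in the library labelled as MM.1S CTBP2 replicate 2. The groups did not overlap within either set of line markers, as was so in this direction for 31.3% of all genes in MM.1S-marker and 31% in NCI-H929-marker libraries, but across lines they did, since MM.1S-marker cells with CTBP2 still held more MYC than NCI-H929 cells without it. Over both lines the log2 fold change was -1.17 (SE 0.258, 95% interval -1.76 to -0.59, adjusted p = 0.0106). The call held with any 1 library left out (adjusted p 0.00843 to 0.0351) and without both CTBP2 replicate 2 libraries (adjusted p = 0.0221). It was lost with no filter on low genes (adjusted p = 0.0699) and with the lines as labelled (adjusted p = 0.329), where each labelled pair of CTBP2 libraries holds one value near 27 and one near 136 FPKM.

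The size of the MYC decrease differed between the lines. In the NCI-H929-marker libraries MYC went from 104 ± 15.4 FPKM to 27.3 ± 0.746 FPKM (SD, n = 2 each), a log2 fold change of -1.88 (SE 0.163, adjusted p = 0.000839), where 32.9% of all genes tested passed. In the MM.1S-marker libraries it went from 189 ± 1.33 FPKM to 136 ± 3.35 FPKM (SD, n = 2 each), a log2 fold change of -0.47 (SE 0.163, 95% interval -0.84 to -0.09) that did not pass (adjusted p = 0.118), where 5.47% of all genes passed. The test of the difference gave -1.41 (SE 0.231, 95% interval -1.94 to -0.88, adjusted p = 0.0362), and 1.26% of all genes passed that test. MYC was the only one of the 10 genes to do so. The difference passed without NCI-H929 CTBP2 replicate 1 (adjusted p = 0.0324), but not with any 1 of the other 7 libraries left out (adjusted p 0.0540 to 0.150) nor without both CTBP2 replicate 2 libraries (-1.36, adjusted p = 0.143). With the lines as labelled it was 0.92 (adjusted p = 0.698), so its direction rests on reading the line from expression.

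MXD4 (Entrez 10608), which encodes an antagonist tied to withdrawal from the cell cycle, rose in both lines. In MM.1S it was at 15.0 and 14.9 FPKM with the empty vector, 39.9 FPKM in MM.1S CTBP2 replicate 1 and 30.4 FPKM in the library labelled as NCI-H929 CTBP2 replicate 2. In NCI-H929 it was at 16.8 and 16.9 FPKM with the empty vector, 31.3 FPKM in NCI-H929 CTBP2 replicate 1 and 31.0 FPKM in the library labelled as MM.1S CTBP2 replicate 2. All 4 CTBP2 libraries lay above all 4 empty vector libraries, a separation in this direction that 7.21% of all genes showed, and MXD4 was the only one of the 10 genes whose vector groups did not overlap. The empty vector levels of the lines were nearly alike, so this rise needs no line assignment to be seen. The log2 fold change in both lines was 1.01 (SE 0.123, 95% interval 0.73 to 1.28, adjusted p = 0.00259). It passed under every alternative tried, the labelled lines included (0.90 to 1.30, adjusted p 0.000695 to 0.0327).

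Within the lines MXD4 was called both times. The log2 fold change was 1.17 in the MM.1S-marker libraries (SE 0.160, adjusted p = 0.00944) and 0.85 in the NCI-H929-marker libraries (SE 0.160, adjusted p = 0.00759). The difference between them was -0.32 (95% interval -0.84 to 0.20, adjusted p = 0.570), an interval that does not show the rise to be alike in the lines. The MM.1S call was lost without MM.1S empty vector replicate 1 (adjusted p = 0.0798) or 2 (0.0858) or MM.1S CTBP2 replicate 1 (0.0953), and the NCI-H929 call without NCI-H929 empty vector replicate 1 (0.0587). With the lines as labelled both were lost (adjusted p = 0.136 and 0.154).

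MXD1 (Entrez 4084), the founding MXD antagonist, which appears when cells differentiate, was the scarcest member with the empty vector. It was at 3.02 and 2.45 FPKM in MM.1S, and reached 5.87 FPKM in MM.1S CTBP2 replicate 1 and 4.20 FPKM in the library labelled as NCI-H929 CTBP2 replicate 2. In NCI-H929 it was at 2.43 and 2.57 FPKM, and came to 2.80 FPKM in NCI-H929 CTBP2 replicate 1 and 4.54 FPKM in the library labelled as MM.1S CTBP2 replicate 2. The groups did not overlap within either set of markers (31.6% and 37% of all genes were higher without overlap there), but NCI-H929 CTBP2 replicate 1 lay below MM.1S empty vector replicate 1. The log2 fold change in both lines was 0.54 (SE 0.160, 95% interval 0.18 to 0.90, adjusted p = 0.0303), and it did not pass in either line alone (0.68, adjusted p = 0.0988 in MM.1S-marker and 0.39, adjusted p = 0.201 in NCI-H929-marker libraries). Without NCI-H929 CTBP2 replicate 1 both were called (adjusted p = 0.0485 and 0.0425), and the MM.1S value was called also without the library labelled as MM.1S CTBP2 replicate 2 (0.0480) and without both CTBP2 replicate 2 libraries (0.0360). Without the library labelled as MM.1S CTBP2 replicate 2 the NCI-H929 value dropped to 0.12 (adjusted p = 0.733), and without MM.1S CTBP2 replicate 1 the MM.1S value was 0.48 (adjusted p = 0.538). This call was the least stable of the 3. It was lost without MM.1S empty vector replicate 1 (adjusted p = 0.0514) or 2 (0.0897), MM.1S CTBP2 replicate 1 (0.0930), the library labelled as MM.1S CTBP2 replicate 2 (0.0720), NCI-H929 empty vector replicate 1 (0.0644) or 2 (0.0558), and without both CTBP2 replicate 2 libraries (0.0936). It was also lost with no filter (adjusted p = 0.104), after quantile normalization (0.36, adjusted p = 0.105) and with the lines as labelled (adjusted p = 0.144).

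The other MXD genes did not pass. MXI1 (Entrez 4601), an antagonist also known as MXD2, was at 9.04 and 7.40 FPKM in MM.1S with the empty vector and at 13.6 and 10.0 FPKM with CTBP2, while in NCI-H929 it was at 11.2 and 10.0 FPKM and then at 9.12 FPKM in NCI-H929 CTBP2 replicate 1 and 16.6 FPKM in the library labelled as MM.1S CTBP2 replicate 2. The spread between those last libraries is wider than the difference between vectors in NCI-H929. Its log2 fold change in both lines was 0.34 (SE 0.185, 95% interval -0.08 to 0.75, adjusted p = 0.178), and without NCI-H929 CTBP2 replicate 1 it was called (0.52, adjusted p = 0.0276), while without the library labelled as MM.1S CTBP2 replicate 2 it was 0.20 (adjusted p = 0.410). MXD3 (Entrez 83463) was at 25.7 and 25.5 FPKM in MM.1S and at 16.3 and 16.8 FPKM with CTBP2 in the MM.1S-marker libraries, a log2 fold change of -0.60 (SE 0.221, adjusted p = 0.133). In the NCI-H929-marker libraries it was at 13.2 and 9.32 FPKM, then at 16.5 and 10.8 FPKM, with overlap and a log2 fold change of 0.25 (SE 0.221, adjusted p = 0.412), which was called under equal totals (0.62, adjusted p = 0.0463) and had the other sign without NCI-H929 CTBP2 replicate 1 (-0.034). In both lines together MXD3 had -0.18 (95% interval -0.64 to 0.29, adjusted p = 0.516), a direction that turned to 0.10 under equal totals. The 4 MXD genes thus did not move as a family: the rise was measured in MXD4 and, less stably, in MXD1.

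**Figure D2:**
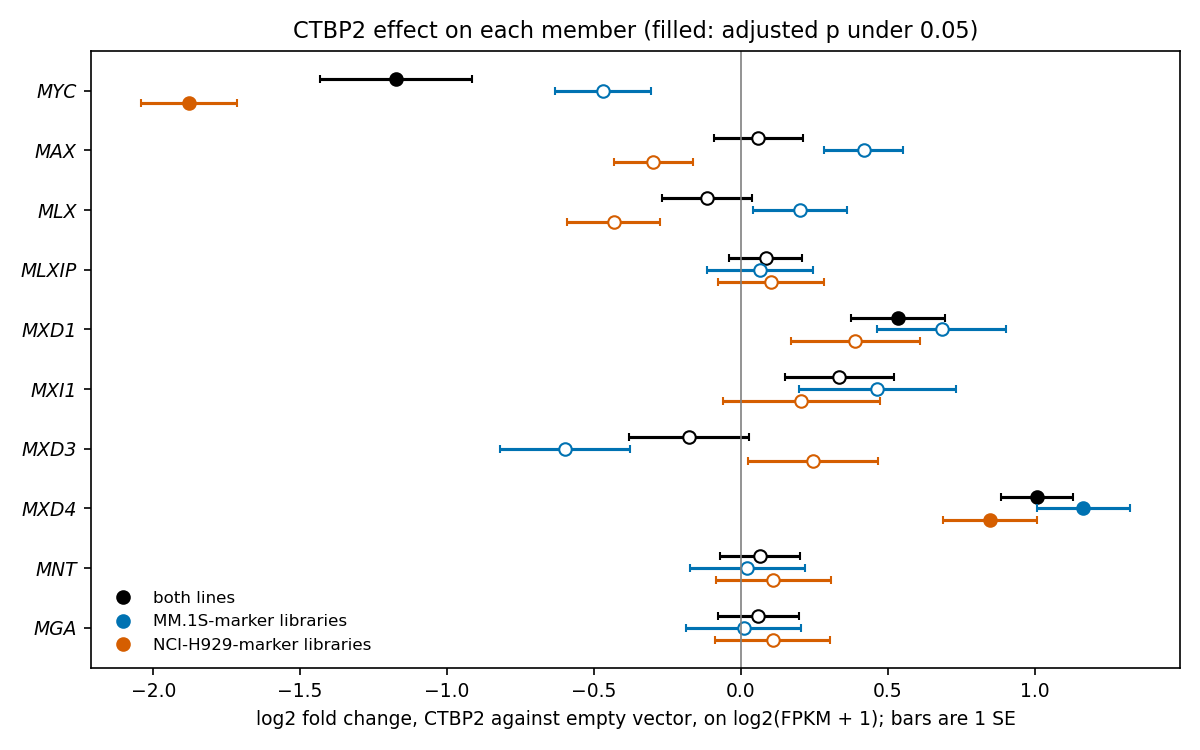
Log2 fold change of CTBP2 against empty vector for each of the 10 genes, on the log2(FPKM + 1) scale, in both lines together and in each set of line markers, with bars of 1 SE from limma, filled points for an adjusted p under 0.05 and a line at 0. MYC lies at -1.17 and MXD4 at 1.01 in both lines, and MYC lies at -0.47 in MM.1S-marker and -1.88 in NCI-H929-marker libraries.

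MAX (Entrez 4149), the dimer partner shared by MYC and all its antagonists, did not pass in either line or in both together. It was at 16.6 and 16.4 FPKM in MM.1S and at 22.01 and 22.7 FPKM with CTBP2 in the MM.1S-marker libraries, where the log2 fold change was 0.42 (SE 0.135, adjusted p = 0.0996). In the NCI-H929-marker libraries it was at 21.8 and 21.3 FPKM and then at 16.3 and 18.4 FPKM, with a log2 fold change of -0.30 (SE 0.135, adjusted p = 0.123). The groups lay apart in opposite directions, which 1.71% of all genes showed in this orientation (higher in MM.1S-marker and lower in NCI-H929-marker libraries). The test of the difference gave -0.72 (SE 0.191, 95% interval -1.15 to -0.28) and did not pass (adjusted p = 0.127), though it did with no filter (adjusted p = 0.0438). The NCI-H929 value was called after a median-of-ratios rescale (adjusted p = 0.0386) and turned to 0.085 under equal totals. Over both lines the value was 0.06 (95% interval -0.28 to 0.40, adjusted p = 0.773).

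MLX (Entrez 6945), the MAX-like partner of MondoA, showed the same arrangement of levels. It was at 22.2 and 23.7 FPKM in MM.1S and at 26.3 and 26.8 FPKM with CTBP2 in the MM.1S-marker libraries, and at 29.3 and 25.1 FPKM and then 22.1 and 17.8 FPKM in the NCI-H929-marker libraries. The groups again lay apart in each line in opposite directions, with log2 fold changes of 0.20 (SE 0.159, adjusted p = 0.449) and -0.43 (SE 0.159, adjusted p = 0.0682). Neither passed, nor did the difference between lines (-0.63, 95% interval -1.15 to -0.12, adjusted p = 0.229). The NCI-H929 value was called without NCI-H929 CTBP2 replicate 1 (adjusted p = 0.0305) and after a median-of-ratios rescale (adjusted p = 0.0423). Over both lines MLX had -0.12 (95% interval -0.46 to 0.23, adjusted p = 0.568), which turned to 0.17 under equal totals and 0.032 after quantile normalization.

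MLXIP, MNT and MGA stayed within the spread of their libraries. MLXIP (Entrez 22877) followed the line: it was at 3.68 to 5.22 FPKM in the 4 MM.1S-marker libraries and at 8.89 to 11.1 FPKM in the 4 NCI-H929-marker libraries, whatever the vector. Its log2 fold change with CTBP2 was 0.08 (95% interval -0.20 to 0.36, adjusted p = 0.610). MNT (Entrez 4335), the most broadly expressed antagonist, was at 7.15 to 8.16 FPKM with the empty vector and at 6.28 to 9.91 FPKM with CTBP2, with a log2 fold change of 0.07 (95% interval -0.24 to 0.37, adjusted p = 0.720). MGA (Entrez 23269), the large scaffold of the variant Polycomb complex PRC1.6, was at 3.17 to 5.15 FPKM and at 2.87 to 4.81 FPKM, with a log2 fold change of 0.06 (95% interval -0.25 to 0.37, adjusted p = 0.751). The intervals allow changes of up to 0.37 on the log2 scale in each of these genes. The sign of MNT and of MGA turned without both CTBP2 replicate 2 libraries (-0.067 and -0.011), and that of MGA also after quantile normalization (-0.094).

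The proportion of MYC to its antagonists is described here without a test, since it is built from genes already described. The summed FPKM of MXD1, MXD3, MXD4, MXI1, MNT and MGA, the 6 members that can oppose MYC, was 65.6 and 62.2 in MM.1S with the empty vector and 88.7 and 73.5 in the MM.1S-marker CTBP2 libraries. In NCI-H929 it was 54.0 and 49.4, then 68.8 and 77.2. In each set of markers the sum was larger in both CTBP2 libraries than in both empty vector libraries. Of all genes 31.6% in MM.1S-marker and 37% in NCI-H929-marker libraries were higher without overlap. In the MM.1S-marker libraries MXD4 carried the larger sum, at 15.0 and 14.9 FPKM and then 39.9 and 30.4 FPKM. MXD3 was lower there, at 25.7 and 25.5 FPKM and then 16.3 and 16.8 FPKM. The sum thus does not show that the antagonists rose as a group. MYC per summed antagonist was 2.89 and 3.02 in MM.1S, 1.51 and 1.89 with CTBP2, 2.12 and 1.88 in NCI-H929, and 0.405 and 0.347 with CTBP2. Only in the NCI-H929-marker CTBP2 libraries was MYC outnumbered by the antagonist transcripts. MXD4 made up 22.9 to 34.3% of the sum with the empty vector and 40.17 to 45.4% with CTBP2. MYC per MXD4 was 12.6 in both MM.1S empty vector libraries and 3.36 and 4.56 with CTBP2. In NCI-H929 it was 6.83 and 5.49, and then 0.891 and 0.864, so that MXD4 was the most abundant member of the network in the latter. MYC per MAX was 6.08 and 6.12 in the MM.1S-marker and 1.70 and 1.45 in the NCI-H929-marker CTBP2 libraries. Transcript proportions say nothing of protein levels, which were not measured.

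**Figure D3:**
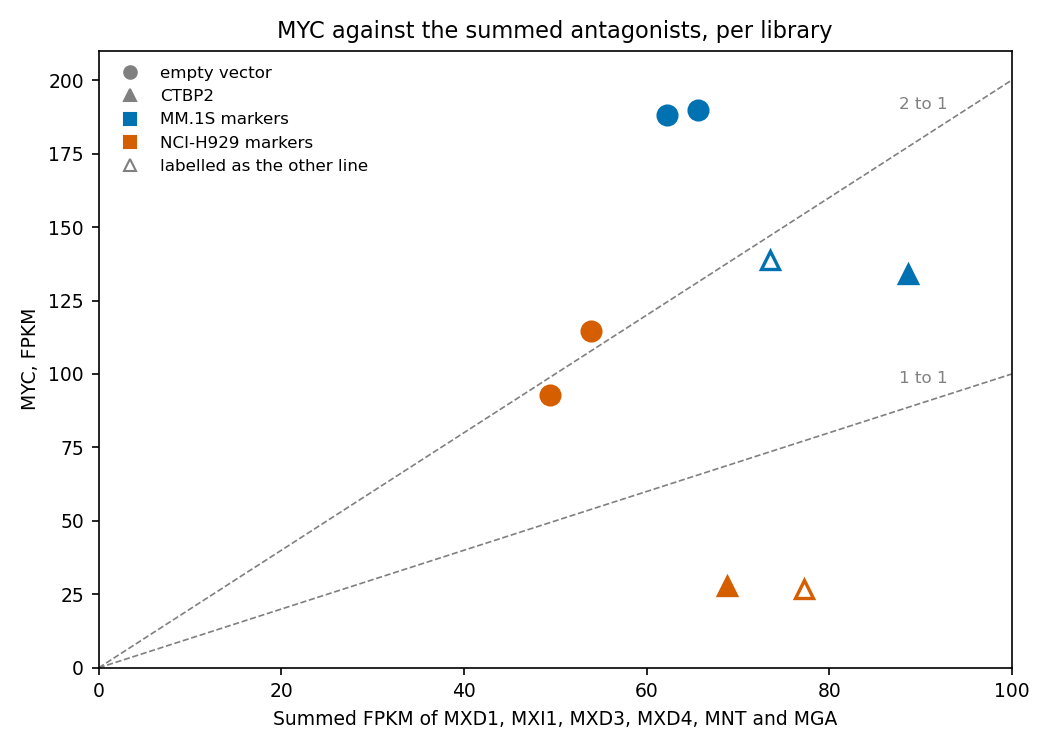
FPKM of MYC against the summed FPKM of the 6 antagonists, coloured by line markers, with circles for empty vector and triangles for CTBP2 (open where labelled as the other line) and dashed lines at ratios of 1 and 2; each point is 1 library. The empty vector libraries have 1.88 to 3.02 MYC per antagonist, the MM.1S-marker CTBP2 libraries 1.51 and 1.89, and the NCI-H929-marker CTBP2 libraries 0.405 and 0.347.

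The genes whose pattern over the 8 libraries was most like that of MYC were COG2, GART, GJB2, CHCHD3 and POM121, by Pearson's r of log2(FPKM + 1) among 5620 genes with a mean of at least 10 FPKM. The r values were 0.997, 0.993, 0.990, 0.988 and 0.987. The 8 points share line and vector, so these values only describe a similar arrangement of 4 groups. GART, an enzyme of purine synthesis, was at 63.8 and 61.4 FPKM in MM.1S with the empty vector, 44.0 and 51.7 FPKM in the MM.1S-marker CTBP2 libraries, 40.9 and 34.9 FPKM in NCI-H929 with the empty vector, and 17.8 and 16.2 FPKM in the NCI-H929-marker CTBP2 libraries. COG2, a subunit of a Golgi tethering complex, was at 8.27 and 8.13 FPKM in that last group and at 13.1 to 19.1 FPKM elsewhere.

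Other genes of the network were scarce or moved little, with MYCBP as the exception. The paralog MYCN was at most 0.748 FPKM and MLXIPL, the ChREBP counterpart of MondoA, at most 0.186 FPKM, both below the filter. MYCL was at 0.920 to 2.20 FPKM (log2 fold change 0.05, adjusted p = 0.80), so MYC was the only family member above a few FPKM. MYCBP, which encodes a MYC-binding protein, was at 21.7 ± 0.493 FPKM with the empty vector and 13.8 ± 1.44 FPKM with CTBP2 (SD, n = 4 each). The 4 CTBP2 values were all lower than the 4 empty vector values, which 7.45% of all genes showed. It fell by a log2 fold change of -0.62 (SE 0.108, adjusted p = 0.00550), and it was not called under equal totals. MYCBP2, a large ubiquitin ligase, was at 3.25 to 11.6 FPKM and did not pass (0.20, adjusted p = 0.345).

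Genes that MYC is known to activate were lower with CTBP2 almost throughout. Of 57 such genes, all tested, 54 fell and 0 rose in both lines together, against 16.7% of all genes falling, and the median log2 fold change was -1.0, against 0.035 over all genes. MRTO4, a ribosome assembly factor, went from 44.1 ± 6.60 to 17.8 ± 4.71 FPKM (SD, n = 4 each; -1.28, adjusted p = 0.00344). GNL3, the nucleolar GTPase nucleostemin, was at 100.4 to 149 FPKM with the empty vector and 47.2 to 66.0 FPKM with CTBP2 (-1.09, adjusted p = 0.00380). TERT, the catalytic subunit of telomerase, was at 1.62 to 2.64 FPKM and at 0.265 to 0.615 FPKM (-1.11). It was below 1 FPKM in every CTBP2 library and so passed the filter through the empty vector libraries only. Its call, counted among the 54, is therefore not independent of the filter. In MRTO4, GNL3 and TERT all 4 CTBP2 libraries lay below all 4 empty vector libraries, as in 7.45% of all genes. The genes named from each list were chosen by smallest p, which favours such a separation. TFAP4, a transcription factor gene that MYC activates, was at 13.1 ± 3.52 and 5.59 ± 3.45 FPKM (SD, n = 4 each; -1.23, adjusted p = 0.00398), also with all CTBP2 libraries below. Within the CTBP2 libraries it was higher in MM.1S CTBP2 replicate 1 (7.42 FPKM) and the library labelled as NCI-H929 CTBP2 replicate 2 (9.55 FPKM) than in NCI-H929 CTBP2 replicate 1 (2.80 FPKM) and the library labelled as MM.1S CTBP2 replicate 2 (2.61 FPKM), the same arrangement as MYC. The 3 genes not called were CCND2 (-0.47, adjusted p = 0.0967), the amino acid transporter subunit SLC3A2 (-0.73, adjusted p = 0.0517) and TXNRD1 (-0.18, adjusted p = 0.316). These 3 were named after their values were seen. CCND2 was also used to read the line, and it was at most 0.063 FPKM in the NCI-H929-marker libraries. Its values are therefore no test of the vector effect, though it stays counted among the 57. In the MM.1S-marker libraries it was at 94.6 and 115 FPKM with the empty vector, and at 46.7 and 60.7 FPKM with CTBP2.

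The median of these 57 genes was -0.73 in the MM.1S-marker libraries, with 6 called lower, CCND2 and TERT among them. In the NCI-H929-marker libraries it was -1.25, with 52 called lower. Of all genes 1.8% and 14.6% were called lower there. By the limma test of the difference between lines 0 of the 57 passed, where 1.26% of all genes did. The value was negative in 55 of the 57 and in 6066 of all 12583 genes tested. The genes of a list are not separate replicates. CTBP2 was higher in both NCI-H929-marker CTBP2 libraries than in both MM.1S-marker ones, so line and CTBP2 level cannot be told apart here. The count within a line moved with single libraries, and so did the count over all genes. With 1 library left out the median ran from -0.96 to -0.48 in the MM.1S-marker libraries. In the NCI-H929-marker libraries it ran from -1.50 to -0.99. In both lines together 41 to 55 were called lower with 1 library left out, where 1159 to 2208 of all genes were. Without both CTBP2 replicate 2 libraries 55 were called lower, with 1633 of all genes. The count lower was 46 under equal totals, 26 with no filter and 24 with the lines as labelled. Over all genes it was 866, 921 of 25906, and 228 there, against 2101 as reported. In these fits of both lines 0 of the 57 were called higher each time.

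Genes that MYC is known to repress moved less uniformly. Of 30 tested, 11 rose and 1 fell, against 17.4% of all genes rising, and the median was 0.45. TSC22D3, the glucocorticoid-induced leucine zipper gene, went from 14.2 ± 2.39 to 48.3 ± 14.1 FPKM (SD, n = 4 each; 1.67, adjusted p = 0.00196). YPEL5 was at 11.8 to 17.3 FPKM and then at 26.5 to 55.2 FPKM (1.41, adjusted p = 0.00277). YPEL3, a gene linked to growth arrest, was at 15.9 to 90.0 FPKM with the empty vector and 99.0 to 259.5 FPKM with CTBP2 (1.90, adjusted p = 0.00525). All 3 had the 4 CTBP2 libraries above the 4 empty vector libraries, as did 7.21% of all genes. CCNG2, a cyclin of non-dividing cells, went from 2.09 ± 1.36 to 5.57 ± 3.32 FPKM (SD, n = 4 each; 1.06, adjusted p = 0.00543). The cell cycle inhibitor genes CDKN1A (0.55, adjusted p = 0.0646) and CDKN1B (0.48, adjusted p = 0.155), the best known repressed targets, did not pass. Of the other inhibitor genes listed, CDKN2B rose (0.59, adjusted p = 0.0265). CDKN1C (0.35, adjusted p = 0.115) and CDKN2C (0.35, adjusted p = 0.0859) did not pass. BTG3 was the gene that fell (-0.73, adjusted p = 0.00965). The inhibitor genes and BTG3 were chosen after their values were seen. The count higher was 20 under equal totals, where 3827 of all genes were higher against 2186 as reported. It was 17 after quantile normalization (1780 of all genes) and 8 without both CTBP2 replicate 2 libraries (1449). With no filter it was 5 (1204 of 25906 genes) and with the lines as labelled 3 (192).

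**Figure D4:**
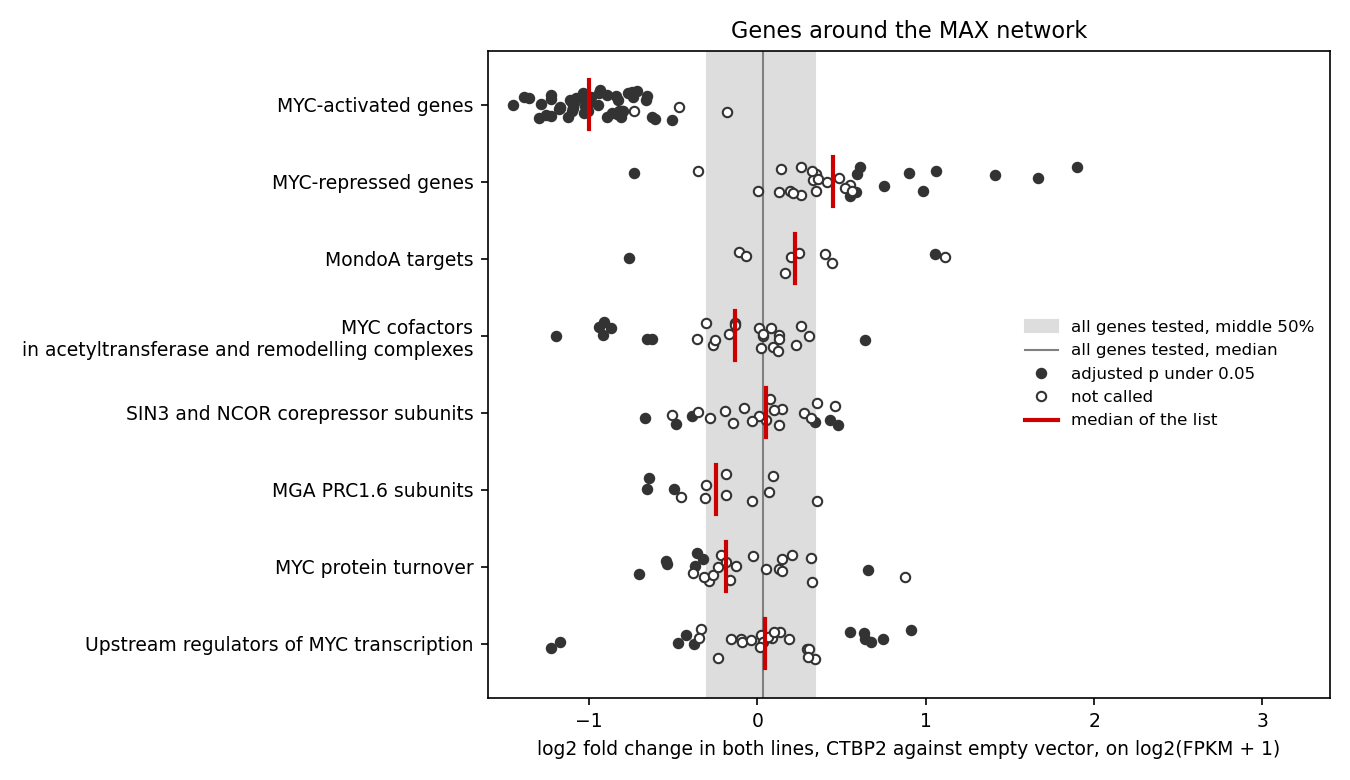
Log2 fold changes of CTBP2 against empty vector in both lines together, on the log2(FPKM + 1) scale, for the tested genes of each list; each point is 1 gene, filled where called, with red bars for list medians and a grey line and band for the median and middle 50% of all genes tested. The 57 MYC-activated genes all lie below 0 with a median of -1.0, and the median of the 30 MYC-repressed genes is 0.45.

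The MondoA branch did not show a common direction. Of 10 known MondoA targets, 1 rose and 1 fell, with a median of 0.22, a total not above the 34.1% of all genes that were called. HBP1, a repressor of cell cycle genes, rose from 15.0 ± 2.24 to 32.4 ± 6.46 FPKM (SD, n = 4 each, 1.05, adjusted p = 0.00407). All 4 of its CTBP2 libraries lay above all 4 empty vector libraries, as in 7.21% of all genes. HK2, the glycolytic enzyme hexokinase 2, fell from 13.3 ± 3.42 to 7.41 ± 2.09 FPKM (SD, n = 4 each; -0.76, adjusted p = 0.00380). TXNIP, the classical MondoA target that restrains glucose uptake, had 1.11 and did not pass (adjusted p = 0.0635); it was chosen after its value was seen. Without NCI-H929 CTBP2 replicate 1 the counts were 3 higher and 1 lower, without MM.1S empty vector replicate 1 or the library labelled as NCI-H929 CTBP2 replicate 2 they were 2 higher and 1 lower, and under equal totals they were 4 higher and 1 lower.

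Among 27 genes for MYC cofactors in acetyltransferase, remodelling and elongation complexes, 7 fell and 1, the acetyltransferase gene EP300 (0.64, adjusted p = 0.0121, named after its value was seen), rose, with a median of -0.13; 34.1% of all genes were called, 16.7% lower, so the total is near the background. KAT2A, the GCN5 acetyltransferase, went from 38.2 ± 5.73 to 16.5 ± 4.97 FPKM (SD, n = 4 each; -1.19, adjusted p = 0.00232). SKP2, a ubiquitin ligase subunit and MYC coactivator, went from 14.1 ± 1.82 to 7.03 ± 0.882 FPKM (SD, n = 4 each; -0.91, adjusted p = 0.00212). WDR5, a chromatin adaptor that contacts MYC, went from 26.9 ± 3.29 to 16.9 ± 3.31 FPKM (SD, n = 4 each; -0.65, adjusted p = 0.00470). In each of these 3 genes the CTBP2 and empty vector groups did not overlap. ACTL6A, an actin-like subunit of remodelling complexes, also fell (-0.63, adjusted p = 0.00675). Under equal totals the counts were 6 lower and 5 higher and the median 0.14, with no filter 4 lower and 0 higher, and with the lines as labelled 2 lower and 0 higher.

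The corepressor machinery that MXD proteins recruit showed no common direction: of 23 SIN3 and NCOR complex genes 3 rose and 3 fell, near the background, with a median of 0.05. The scaffold gene SIN3B was at 6.92 ± 0.633 and 9.72 ± 1.40 FPKM (SD, n = 4 each; 0.43, adjusted p = 0.0279), and SAP30, a SIN3-associated subunit, fell from 26.9 ± 3.34 to 16.6 ± 2.59 FPKM (SD, n = 4 each; -0.67, adjusted p = 0.00974). GPS2, another corepressor complex subunit, also fell (-0.48, adjusted p = 0.0380). These calls were unstable: the total was 1 without replicate 2 of MM.1S empty vector, either NCI-H929 empty vector library, or the library labelled as MM.1S CTBP2 replicate 2, and 2 without MM.1S CTBP2 replicate 1. Under equal totals it was 8 higher and 0 lower. Of 12 PRC1.6 subunit genes, which act with MGA, WDR5, CBX3 (-0.64, adjusted p = 0.00769) and TFDP1 (-0.50, adjusted p = 0.0119) fell and 0 rose, with a median of -0.25, a total not above the 34.1% of all genes that were called. Under equal totals the median was 0.018 with 2 lower and 1 higher, and with the lines as labelled limma called 0 of them.

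Of 25 genes for MYC protein turnover 6 fell and 1 rose, with a median of -0.18, where 34.1% of all genes were called and 16.7% fell, so the total is not above the background. The ubiquitin ligase scaffold CUL1 (-0.54, adjusted p = 0.00986) fell, as did the phosphatase inhibitors SET (-0.54, adjusted p = 0.0149) and KIAA1524 (-0.70, adjusted p = 0.0188), the latter encoding CIP2A. PPP2R5A, the phosphatase subunit that favours MYC degradation, rose from 11.7 ± 3.29 to 19.3 ± 6.14 FPKM (SD, n = 4 each; 0.65, adjusted p = 0.0106). The total of 7 dropped to 2 without MM.1S CTBP2 replicate 1, 3 without NCI-H929 empty vector replicate 1 and 4 without NCI-H929 CTBP2 replicate 1 or the second NCI-H929 empty vector library. Under equal totals 5 rose and 0 fell, and after quantile normalization 3 rose and 2 fell, so the directions in this list hang on the scaling.

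Of 30 known upstream regulators of MYC transcription 6 rose and 5 fell, close to the background share, with a median of 0.05. IRF4, the plasma cell factor that supports MYC, was at 132 to 160.3 FPKM in the empty vector libraries and at 59.7 to 69.6 FPKM in the CTBP2 libraries, with log2 fold changes of -1.26 in MM.1S-marker and -1.08 in NCI-H929-marker libraries. In both lines it fell by a log2 fold change of -1.17 (SE 0.118, adjusted p = 0.00166). E2F1, a cell cycle factor that is itself a MYC target, fell from 44.7 ± 7.93 to 19.2 ± 6.82 FPKM (SD, n = 4 each; -1.23, adjusted p = 0.00667). STAT3 rose from 11.7 ± 2.44 to 20.7 ± 6.31 FPKM (SD, n = 4 each; 0.75, adjusted p = 0.00407). SPI1, the myeloid and B cell factor PU.1, rose from 11.01 ± 1.01 to 21.9 ± 4.54 FPKM (SD, n = 4 each; 0.91, adjusted p = 0.00469). The total of 11 was 7 without MM.1S CTBP2 replicate 1, 4 with no filter and 2 with the lines as labelled, and under equal totals 9 rose and 2 fell.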

How the data were processed

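RNA of 8 cultures was made into TruSeq libraries, per the labels' protocols. Aligner and counter named in the submitters' processing notes are STAR 2.6.0b-1 with HTSeq 0.9.1, on build GRCh37. Values are FPKM as deposited by the authors, the unit read from the table's name; the tool that made them is not given in the sources used here. Reads from the vector and the endogenous CTBP2 gene cannot be told apart.

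Depth was estimated from the steps between low values, of which 54.2 to 63.8% were whole within 0.1 fragment, against 20.0% by chance, so no count test was run. Genes reaching 1 FPKM in 2 or more libraries were tested, and log2(FPKM + 1), which understates changes of low genes, was fitted with limma 3.58.1 in R 4.3.3 (eBayes with trend, Benjamini-Hochberg, threshold 0.05). Both lines together used line and vector as terms; within-line values, their difference and the baseline used 1 mean per group over all libraries. Where a library was left out of a group of 2, the lone library was assumed to vary like the other groups. The script was tested on simulated data. Nothing says that duplicates were separate transductions beyond the word biological, so p-values measure the spread between these libraries.

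The members, the lists and the tests were chosen with earlier results of these data known. Named are the 10 members, other MAX network genes, up to 4 called genes of each list by smallest p, the 5 genes most like MYC, CTBP2, CCND2 and FGFR3; exceptions are marked in the text, and 1 gene that the rule names is not reported here. Promoters come from RefSeq GRCh38.p14, matched by symbol, with the first listed start site of each member. Other settings were no filter, a filter of 5 FPKM, a pseudocount of 0.1, median-of-ratios, quantile and equal-totals scaling, no trend, a replicate block, the lines as labelled, and leaving out each library or both CTBP2 replicate 2 libraries.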

Additional observations from a re-analysis of the deposited data

Results flagged for a closer look

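The effect of CTBP2 on MYC differed between the lines by -1.41 on the log2(FPKM + 1) scale (NCI-H929-marker minus MM.1S-marker libraries, limma adjusted p = 0.0362), and the test of the difference itself passed. It did not pass in 7 of the 8 fits with 1 library left out (limma adjusted p up to 0.150), and it had the other sign with the lines as labelled (0.92). MAX was higher with CTBP2 in both MM.1S-marker libraries and lower in both NCI-H929-marker libraries, with a difference of -0.72 that did not pass (limma adjusted p = 0.127) and an NCI-H929 value that changed sign under equal totals. MLX was arranged the same way, with a difference of -0.63 that did not pass (limma adjusted p = 0.229). In all these differences line cannot be told apart from CTBP2 level, which was higher in both NCI-H929-marker CTBP2 libraries than in both MM.1S-marker ones.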

How the results depend on the processing

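The precision is limited by 2 libraries a group and, for MYC, by about 1200 to 7600 fragments a library. The number of the 10 genes called by limma in both lines together (3) was 1 with no filter and 1 with the lines as labelled, and 2 to 4 with 1 library left out. In MM.1S-marker libraries (1) it was 0 as labelled, 2 without both CTBP2 replicate 2 libraries and 0 to 2 with 1 library left out; in NCI-H929-marker libraries (2) it was 4 after the median-of-ratios rescale, 0 as labelled and 1 to 4. For the difference between lines (1) it was 2 with no filter, 0 under the replicate block, 0 as labelled, 0 without both CTBP2 replicate 2 libraries and 0 to 1. For the baseline (4) it was 0 as labelled and 3 to 4.

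Changes of sign touched uncalled values, apart from the difference of MYC between lines, 0.92 as labelled. In both lines they were MAX -0.0062 after the median-of-ratios rescale, MGA -0.094 and MLX 0.032 after quantile normalization, MXD3 0.10 and MLX 0.17 under equal totals, and MNT -0.067 and MGA -0.011 without both CTBP2 replicate 2 libraries. MAX in NCI-H929-marker libraries was 0.085 under equal totals, and MLX in MM.1S-marker libraries -0.080 as labelled. With 1 library left out the ranges in both lines were -0.020 to 0.16 for MAX, -0.059 to 0.17 for MNT, -0.039 to 0.14 for MGA and -0.20 to 0.0077 for MLX, and -0.034 to 0.53 for MXD3 in NCI-H929-marker libraries. The cause was not tested.

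The replicate block, with the number in the titles as a term, left MYC, MXD1 and MXD4 called in both lines and took the difference of MYC to an adjusted p of 0.0731 and MAX at baseline to 0.0718. The labels do not say whether the numbers pair libraries. Deviations of same-numbered libraries correlated at 0.435 and 0.452 within lines and at -0.275 to 0.027 across them. The block used the same replicate term for both lines, so it cannot fit a pairing within each line, which was not tested. The filter of 5 FPKM, the pseudocount of 0.1 and the fit with no trend changed none of these calls, except that MAX at baseline was lost with no trend (adjusted p = 0.0521) and MXD1 was not tested under the filter of 5 FPKM. Over all genes the calls in both lines were 2125 with no filter, 420 as labelled, and 2458 without MM.1S CTBP2 replicate 1, against 4287. Leaving out the second MM.1S empty vector library gave 2835, and leaving out the first or second of NCI-H929 gave 2528 or 2823.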
